A study of Mus musculus with 6 samples.

Results

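Chromatin accessibility was examined around Klf2, Klf4, Klf6, Klf9, Klf10, Klf13 and Klf15, members of the Kruppel-like factor family that have been linked to glucocorticoids, in astrocytes with and without the glucocorticoid receptor (GR). Every called ATAC-seq peak was taken whose summit lay in the body of 1 of the 7 genes or within 100 kb of it, which gave 1486 of the 1116429 peaks in the 6 libraries, 242 to 261 per library. Summits were merged into sites that extend 200 bp either way from a centre. Sites were kept where 2 or more libraries had a peak, and 299 of the 218404 kept lay in the 7 windows.

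All mice carried GR fl/fl, a floxed allele of the receptor gene Nr3c1, and were injected at P0-P1 with an adeno-associated virus. The vector was AAV2/5 with the GfaABC1D promoter, which directs expression to astrocytes. In GR-KO mice it encoded Cre and in GR-con mice ΔCre, an inactive form, each joined through a self-cleaving peptide to EGFP-KASH and followed by the 4x6T cassette of microRNA target sites. The 4x6T cassette lowers expression outside astrocytes, and the KASH domain holds EGFP at the nuclear membrane so that nuclei of infected cells can be sorted. Nuclei came from primary visual cortex (V1) at P21. Each of the 3 libraries per condition pooled 3 to 4 mice by the labels, though the sources differ on the upper number, so no library stands for 1 animal, and only cells that the virus reached were sampled.

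Kruppel-like factors bind GC-rich promoter elements through zinc fingers at the C terminus and differ in what their N termini recruit. Klf9, Klf10 and Klf13 can recruit the Sin3A corepressor, whereas Klf2, Klf4 and Klf6 belong to a subgroup known mainly as activators, and Klf15 is known for control of metabolic genes. Klf9 and Klf15 are well-known glucocorticoid-induced genes in several tissues. Ligand-bound GR binds as a dimer to a palindrome of paired half-sites separated by a short spacer.

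The palindrome was sought in the mm10 sequence of each site, within 100 bp of its centre and on both strands, in a relaxed form (GNACANNNTGTNC) and in a strict form that the relaxed one includes (GAACANNNTGTTC). The relaxed form was at 4 of the 299 sites in the windows, or 1.34% (exact 95% binomial interval 0.366 to 3.39%), and at 0.582% of all sites. The strict form was at 2 of the 299 (0.669%) and at 0.0636% of all sites. The 4 sites are shown first because every one had weaker or fewer peaks in GR-KO. The last 2 sequences are of sites whose palindrome reached past 100 bp from the centre, chosen after their values were seen. Each stretch is from the plus strand of mm10, read from the RefSeq assembly of that build. Capitals mark the palindrome. It is of the strict form at the Klf9 site downstream of the start, the Klf15 site 8769 bp from the start and the Klf13 site, and of the relaxed form alone at the others.
Klf9, 84192 bp upstream, chr19:23056934-23057134: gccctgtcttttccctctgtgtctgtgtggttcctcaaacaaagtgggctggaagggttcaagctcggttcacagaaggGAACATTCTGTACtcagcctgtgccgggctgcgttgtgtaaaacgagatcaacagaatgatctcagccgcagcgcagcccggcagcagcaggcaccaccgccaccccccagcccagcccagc
Klf9, 73249 bp downstream of the start, chr19:23214375-23214575: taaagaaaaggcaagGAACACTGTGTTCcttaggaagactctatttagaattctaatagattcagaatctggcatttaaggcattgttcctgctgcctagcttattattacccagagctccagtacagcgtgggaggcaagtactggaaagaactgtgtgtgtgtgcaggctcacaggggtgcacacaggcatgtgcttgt
Klf15, 8769 bp downstream of the start, chr6:90471245-90471445: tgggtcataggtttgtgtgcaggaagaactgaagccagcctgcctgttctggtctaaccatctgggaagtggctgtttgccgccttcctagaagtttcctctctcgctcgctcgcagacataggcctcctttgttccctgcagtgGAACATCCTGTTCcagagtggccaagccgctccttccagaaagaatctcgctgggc
Klf15, 46692 bp downstream of the start, chr6:90509168-90509368: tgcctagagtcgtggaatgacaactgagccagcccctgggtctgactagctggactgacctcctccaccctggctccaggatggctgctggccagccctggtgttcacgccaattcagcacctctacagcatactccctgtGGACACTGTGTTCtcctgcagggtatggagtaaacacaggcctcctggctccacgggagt
Klf13, 41914 bp downstream of the start, chr7:63896922-63897122: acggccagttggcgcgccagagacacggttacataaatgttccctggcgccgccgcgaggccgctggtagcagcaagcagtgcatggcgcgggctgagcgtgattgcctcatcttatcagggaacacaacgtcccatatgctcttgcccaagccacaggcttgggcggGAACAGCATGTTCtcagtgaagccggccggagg
Klf9, 6261 bp upstream, chr19:23134925-23135125: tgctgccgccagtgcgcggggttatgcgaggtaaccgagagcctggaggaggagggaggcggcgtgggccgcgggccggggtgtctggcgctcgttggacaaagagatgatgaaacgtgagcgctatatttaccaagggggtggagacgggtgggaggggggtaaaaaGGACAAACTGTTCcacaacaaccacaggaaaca

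At the deleted gene itself, 2 of 22 sites in the body of Nr3c1 were called by rank of −log10 p, in opposite directions. An intronic site had 140, 151 and 130 reads stacked at its summit in GR-con and 36, 24 and 33 in GR-KO (limma, adjusted p = 0.00105). Another had summits in GR-KO alone, with −log10 p of 20.9, 13.9 and 22.6 (limma, adjusted p = 0.0424). That site was kept only through GR-KO, with the GR-con libraries ranked lowest, so its call largely restates where summits were found. Its fold did not pass (limma, adjusted p = 0.0768), and cover by GR-con peaks is not given here. The other 20 did not pass (adjusted p from 0.473), among them 8 with pile-ups of 37 to 421 reads in all 6 libraries. Of 10 astrocyte markers, 8 had a peak within 500 bp of the start in all 6 libraries, and Aqp4 and Aldh1l1 had none. The median percentile of the astrocyte list, by −log10 p within the library, was 86.8 to 87.9 in GR-con and 85.2 to 86.5 in GR-KO. A peak in all 6 libraries was found at 2 of 6 neuronal markers (list median 6.41 to 38.4 in GR-con and 11.8 to 38.4 in GR-KO) and at 3 of 6 oligodendrocyte-lineage markers (23.9 to 27.4 and 12.5 to 31.6). The same held for 2 of 5 microglial and 1 of 5 endothelial markers, with list medians of 0. Olig2 and Cspg4, of the oligodendrocyte lineage, had median percentiles of 83.6 and 88.5 in GR-con and 84.2 and 87.5 in GR-KO, in the range of the astrocyte genes. The microglial P2ry12 had 70.2 and 66.5 and Tmem119 40.3 and 60.3, the neuronal Syt1 had 58.1 and 56.2, and the endothelial Flt1 27.0 and 41.3. Mbp had 47.8 and 31.9 and Snap25 36.2 and 30.7, also with a peak in all 6 libraries, and Gad2 and Rbfox3 had one in 5. No peak in any library was found at the neuronal genes Slc17a7 and Gad1, at Mog and Pdgfra, at the microglial Cx3cr1, Csf1r and Spi1 or at the endothelial Cldn5, Pecam1, Tek and Cdh5. As Aqp4 and Aldh1l1 show, a gene without a peak at its start does not mark its cell type as absent. The part of other cell types in the results was not tested. In pooled nuclei, fewer nuclei with an open site and less opening per nucleus cannot be told apart.

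The 7 windows held unequal numbers of sites: 68 at Klf15, 60 at Klf13, 46 at Klf9, 40 at Klf2, 39 at Klf10, 30 at Klf4 and 16 at Klf6. Windows reach over neighbouring genes. The member had the nearest protein-coding start for 14 of the 68 sites at Klf15, whose window contains Aldh1l1, and for 9 of the 40 at Klf2. It was the nearest for 40 of 46 at Klf9 and for every site at Klf4 and Klf6. Of the 299 sites, 161 (53.8%) had a peak in all 6 libraries, against 54.0% of all sites.

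Peaks were compared on the deposited values, the fold of the summit over local background and the −log10 p, each as the normal score of its rank within the library, with limma and adjustment over all sites. By rank of −log10 p, 8 of the 299 sites (2.68%) were lower in GR-KO at an adjusted p under 0.05, against a background of 0.356% of all sites. Of the 8, 1 kept its call in a limma fit without a variance trend. When peaks covering a site were counted in place of summits, 2 of the 8 did. Of the 299, 1 (0.334%) was higher, against 0.264%. The 8 lower sites formed 6 separate stretches when sites within 1 kb were joined. Of these stretches, 2 lay near Klf9, 2 near Klf15, 1 near Klf13 and 1 near Klf2, and no site near Klf4, Klf6 or Klf10 passed. All 8 sites lay more than 2 kb from the member's start, 6 in introns and 2 between genes.

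By rank of fold, 0 of the 299 sites passed in either direction by limma, against 0.0311% of all sites lower and 0.0151% higher. At an unadjusted p under 0.05, 16 sites were lower and 16 higher by fold, 5.35% each, against 5.27% and 5.34% of all sites. Every GR-con library was above every GR-KO library by −log10 p at 48 sites (16.1%, against 11.1% of all sites), and the reverse held at 12 (4.01%, against 5.18%). By fold these counts were 24 (8.03%, against 8.64%) and 31 (10.4%, against 5.84%). For 1 site taken alone, the smallest p that exact permutation of 3 and 3 libraries allows is 0.1.

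If the −log10 p is a Poisson tail and 1 was added to pile-up and background in the fold, these values of a peak together fix how many reads were stacked at its summit and the local background. That form was inferred from the files, and the pile-ups are solved values. At sites with a peak in all 6 libraries the solved pile-up was within 0.1 of a whole number for 100% of peaks, and its median was 74 to 79 reads in GR-con and 69 to 70 in GR-KO. Pile-ups below are reads as solved, and ratios are GR-KO over GR-con on the log2(pile-up + 1) scale after each library was scaled to a common median. By pile-up, 21 of 161 sites (13.0%) were lower in GR-KO, against a background of 2.42%, and 3 (1.86%) were higher, against 3.92%. With quantile scaling 26 were lower (16.1%, background 2.71%) and 2 higher (1.24%, background 2.95%). All 21 lower sites lay more than 2 kb from the member's start, 13 in introns and 8 between genes. Sites that lacked a peak in any library have no pile-up and are outside these counts.

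**Figure D1:**
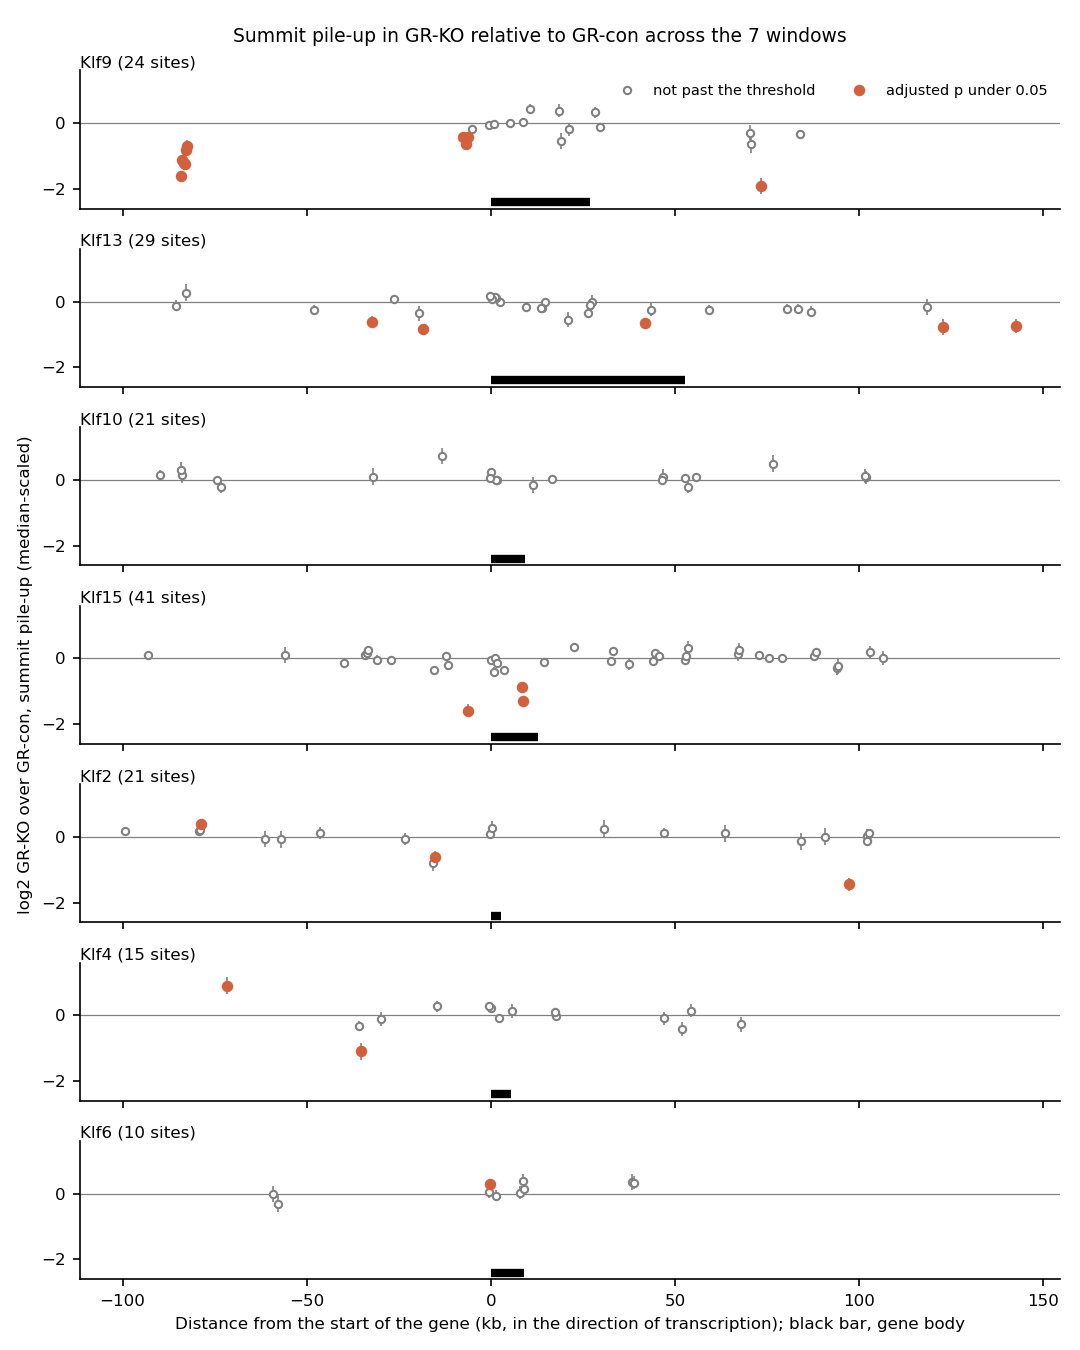
Summit pile-up in GR-KO relative to GR-con (log2, median-scaled, with standard error bars) against distance from the start of each gene in kb, for sites with a peak in all 6 libraries. Of the 24 Klf9 sites plotted, 10 were lower in GR-KO at an adjusted p under 0.05, and of the 21 Klf10 sites, 0.

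Klf9 (chr19:23141226-23168134, plus strand) had the most lower sites, 4 of 46 by −log10 p and 10 of the 24 with a pile-up (41.7%), with 0 higher by either. The median log2 ratio of pile-up over those 24 sites was -0.38, against 0.04 over all 118009 sites tested. Among 21938 protein-coding genes with windows drawn the same way, 0.082% had at least 4 lower sites by −log10 p and 0.0501% had at least 10 by pile-up. The Klf9 window held 46 sites against a median of 31 per gene, and 24 with a pile-up against 17. Without GR-con replicate 1 or 2 the count by −log10 p at Klf9 was 1, and shares of genes were not computed for those fits. Sites within 1 stretch share their open chromatin and are not independent.

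The site 84192 bp upstream of Klf9, in an intron of the noncoding gene C330002G04Rik, holds the palindrome GAACATTCTGTAC shown above. Its pile-up was 342, 294 and 280 reads in GR-con and 108, 85 and 84 in GR-KO. Every GR-KO library lay far below every GR-con library, a ratio of 0.331 (log2 -1.60 ± 0.12 SE, adjusted p = 1.86e-15). The −log10 p was 189 ± 26.2 in GR-con and 47.1 ± 8.29 in GR-KO (SD, n = 3), a score difference of -0.73 ± 0.07 SE (limma, adjusted p = 0.000642). The fold was 10.3, 9.09 and 9.73 in GR-con and 7.16, 6.42 and 6.73 in GR-KO and did not pass (adjusted p = 0.201). The local background by which the fold is divided was 27.9 to 32.2 reads in GR-con and 11.6 to 14.2 in GR-KO, so it was lower as well.

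That stretch had 6 sites with a peak in all libraries, and all 6 were lower by pile-up. The conditions were apart at each, but sites called lower are picked for such a gap. The share of all sites apart by pile-up was not counted. At 83770 bp upstream the pile-up was 315, 321 and 269 reads in GR-con and 138, 131 and 114 in GR-KO (ratio 0.463, adjusted p = 6.01e-11). Its score difference by −log10 p was -0.45 ± 0.06 SE (adjusted p = 0.00377). At 83179 bp upstream the pile-up was 163, 153 and 153 against 63, 67 and 51 reads (ratio 0.422), and the −log10 p passed narrowly (adjusted p = 0.0490). The remaining sites of the stretch had ratios of 0.434 at 83444 bp, 0.568 at 82837 bp and 0.615 at 82589 bp upstream. The call at 82837 bp was lost without GR-con replicate 1 (adjusted p = 0.0698) and that at 82589 bp without GR-con replicate 2 (adjusted p = 0.0714).

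A second group of lower sites lay nearer the gene. At 7598 bp upstream the pile-up was 359, 379 and 339 reads in GR-con and 249, 234 and 255 in GR-KO, a ratio of 0.748. At 6883 bp upstream it was 175, 231 and 202 against 127, 104 and 124, a ratio of 0.640. At 6261 bp upstream, in an intron of the noncoding gene 2410080I02Rik and beside the relaxed palindrome GGACAAACTGTTC, it was 373, 407 and 384 against 264, 256 and 274, a ratio of 0.744. All 3 passed by pile-up (adjusted p = 0.00323, 0.000255 and 0.00183) and none by −log10 p (adjusted p = 0.335, 0.428 and 0.273). The ratios at these sites were closer to 1 than in the distal stretch.

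**Figure D2:**
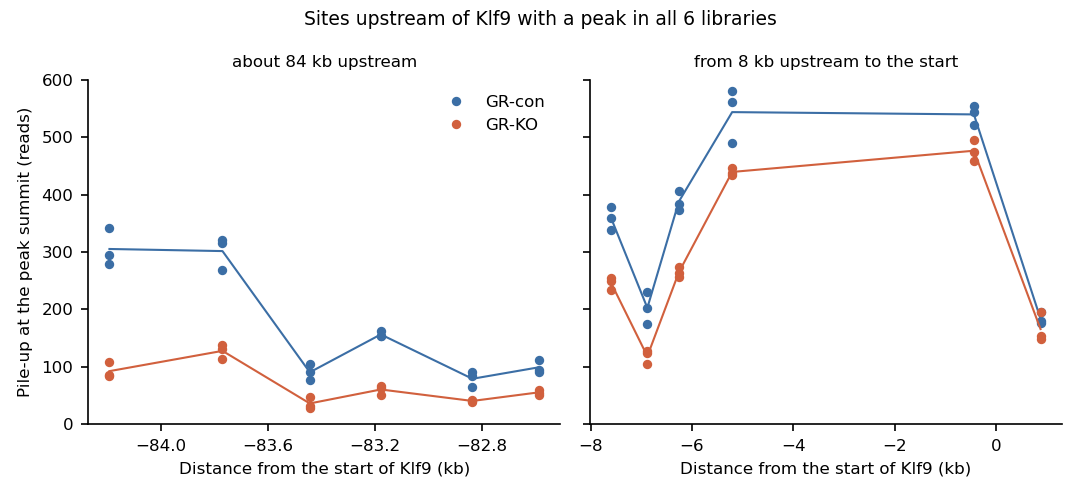
Summit pile-up in reads of each library (points) at sites upstream of Klf9 with a peak in all 6 libraries, against distance from the start in kb. Lines join the condition means from site to site and do not show signal between sites, and the pile-ups are not scaled for depth. GR-KO points lie below GR-con points at each upstream site, by the most in the stretch about 84 kb upstream, and the conditions overlap at the site past the start.

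Downstream of Klf9, a site 73249 bp from its start lay in an intron of Smc5, which encodes a subunit of a chromosome-maintenance complex and has the nearest start. It holds the strict palindrome GAACACTGTGTTC. Its pile-up was 90, 142 and 58 reads in GR-con and 23, 24 and 18 in GR-KO. The GR-con libraries were widely spread and all lay above GR-KO, with the lowest ratio of the 161 sites with a pile-up, 0.268 (log2 -1.90 ± 0.24 SE, adjusted p = 2.7e-08). Its −log10 p was 68.2, 124 and 34.9 in GR-con and 9.91, 11.2 and 6.75 in GR-KO (adjusted p = 0.0175).

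At the promoter of Klf9, 147 bp upstream, the −log10 p was 285 and 274 in GR-con replicates 1 and 2 and 337, 329 and 259 in GR-KO. GR-con replicate 3 had a peak over the site but no summit within 200 bp (adjusted p = 0.498, with that library ranked lowest). At 433 bp upstream the pile-up was 555, 544 and 521 reads in GR-con and 459, 496 and 475 in GR-KO, apart before scaling, with a scaled ratio of 0.962 (adjusted p = 0.792). The strongest distal site of Klf9, in its own intron 5306 bp from the start, had 471 ± 9.64 and 431 ± 27.0 reads (SD, n = 3), a scaled ratio of 0.997. The smallest p among sites higher in GR-KO was at 5703 bp upstream, where only GR-KO had summits, with −log10 p of 5.67, 7.24 and 6.62, although intervals covered it in all 6 libraries (adjusted p = 0.209).

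Klf15 (chr6:90462576-90475238, plus strand) had 2 of 68 sites lower by −log10 p and 3 of 41 lower by pile-up, on both sides of its start, with 7 lower under quantile scaling. One lay in its own intron, 8769 bp from the start, with the strict palindrome GAACATCCTGTTC. There the pile-up was 340, 322 and 247 reads in GR-con and 115, 123 and 100 in GR-KO, with no overlap (ratio 0.410, log2 -1.29 ± 0.12 SE, adjusted p = 3.33e-12). Its −log10 p was 175 ± 40.6 in GR-con and 49.6 ± 7.19 in GR-KO (SD, n = 3), a score difference of -0.64 ± 0.08 SE (limma, adjusted p = 0.00265). Its fold was 9.36, 9.32 and 7.57 against 5.79, 6.16 and 5.48 and did not pass (adjusted p = 0.194). A summit at 8486 bp in the same intron had 188, 138 and 118 reads in GR-con and 68, 81 and 70 in GR-KO (ratio 0.550, adjusted p = 7.01e-05).

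The other Klf15 site lay between genes, 6138 bp upstream, and held neither form of the palindrome. Its pile-up was 152, 123 and 92 reads in GR-con and 31, 45 and 33 in GR-KO. The conditions did not overlap, with a ratio of 0.332 (log2 -1.59 ± 0.20 SE, adjusted p = 1.24e-08), and the −log10 p passed too (adjusted p = 0.0167). A further site with the relaxed palindrome, GGACACTGTGTTC, lay 46692 bp from the Klf15 start in an intron of Aldh1l1. Its −log10 p was 50.0, 41.4 and 24.2 in GR-con and 8.95 in GR-KO replicate 1, and no peak covered it in the other GR-KO libraries (adjusted p = 0.0815).

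The Klf15 promoter, 56 bp upstream, had 447, 416 and 434 reads in GR-con and 346, 421 and 381 in GR-KO, a scaled ratio of 0.962 (adjusted p = 0.806). The strongest distal site of the window, in an intron of Aldh1l1 72748 bp from the Klf15 start, had 639.7 ± 11.5 and 628 ± 25.8 reads (adjusted p = 0.585 by limma). Neither differed beyond the spread of the libraries. The smallest p among sites higher in GR-KO was 14687 bp from the start, where GR-con replicates 1 and 2 had no summit although a peak covered the site in all 6 libraries (adjusted p = 0.148).

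**Figure D3:**
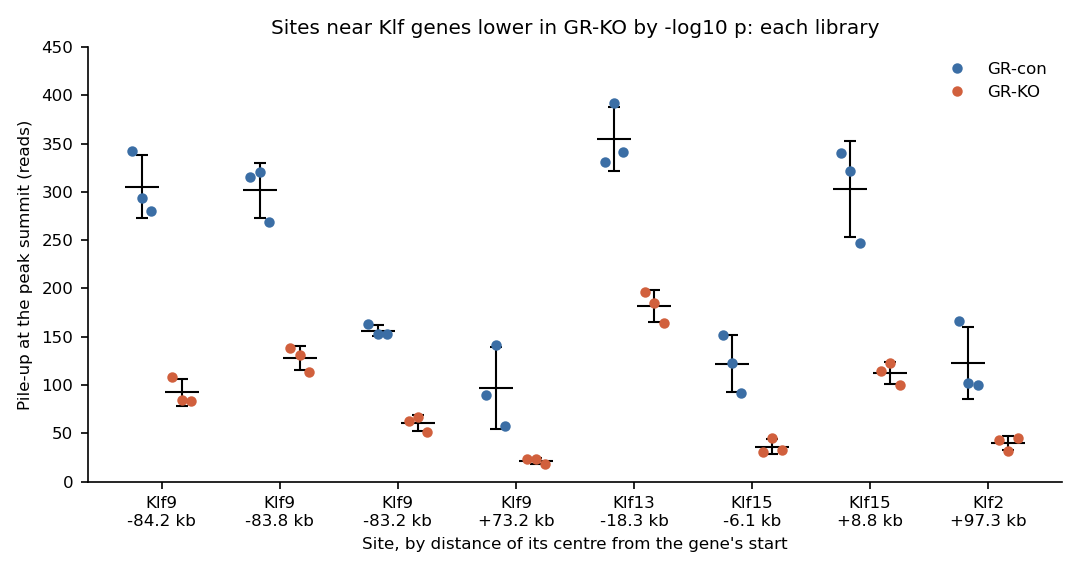
Summit pile-up in reads at the 8 sites lower in GR-KO by rank of −log10 p, each point 1 library, with the mean and SD of 3 libraries per condition in black. At each of the 8 sites the highest GR-KO point lies below the lowest GR-con point. The sites were chosen because they were called lower, and the share of all sites apart by pile-up was not counted.

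At Klf13 (chr7:63886351-63938915, minus strand), a site between genes 18306 bp upstream had 331, 392 and 341 reads in GR-con and 196, 185 and 164 in GR-KO. The conditions were apart, with a ratio of 0.560 (log2 -0.84 ± 0.10 SE, adjusted p = 1.93e-08), and the −log10 p passed (score difference -0.45 ± 0.06 SE, adjusted p = 0.00646). Its fold was 14.7 ± 1.16 in GR-con and 13.1 ± 1.14 in GR-KO (SD, n = 3) and overlapped (limma, adjusted p = 0.568), while its local background was 22.7 to 23.5 reads in GR-con and 12.9 to 13.0 in GR-KO.

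Within the gene, an intronic site 41914 bp from the start lay beside the strict palindrome GAACAGCATGTTC. It had 335, 430 and 303 reads in GR-con and 195, 215 and 206 in GR-KO, without overlap (ratio 0.636, adjusted p = 1.71e-05), and did not pass by −log10 p (adjusted p = 0.0846). The 1 site called higher in the windows, 41678 bp from the start, was next to it and had the same palindrome within 200 bp of its centre. Only GR-KO libraries had a summit there, with −log10 p of 28.0, 33.9 and 35.8 (score difference 1.84 ± 0.28 SE, adjusted p = 0.0114), but a peak covered it in all 3 GR-con libraries. When a covering peak was counted in place of a summit, its score difference was -0.37 (adjusted p = 0.272), so the direction turned with that choice. Without any 1 library other than GR-con replicate 3 its call was lost.

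Of the 29 Klf13 sites with a pile-up, 5 were lower and 0 higher, and the median log2 ratio was -0.21. The other 3 lower sites lay 32261 bp upstream (ratio 0.649) and 122803 and 142512 bp from the start, beyond the 3′ end (0.581 and 0.598). Their calls were lost in 4, 5 and 4 of the 6 fits that left out 1 library (adjusted p up to 0.194, 0.254 and 0.250) and each of the 3 was lost where GR-con replicate 1 or GR-KO replicate 2 was the library left out. The Klf13 promoter, 210 bp upstream, had 676, 660 and 626 reads in GR-con and 661, 738 and 625 in GR-KO, which overlapped (scaled ratio 1.12, adjusted p = 0.276). Its strongest distal site, 26409 bp upstream, had 583 ± 8.54 and 568 ± 39.9 reads (ratio 1.06, limma, adjusted p = 0.654).

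The lower sites of Klf15 and Klf13 that passed by −log10 p and held no palindrome are shown for comparison, from the plus strand of mm10 around the centre.
Klf15, 6138 bp upstream, chr6:90456338-90456538: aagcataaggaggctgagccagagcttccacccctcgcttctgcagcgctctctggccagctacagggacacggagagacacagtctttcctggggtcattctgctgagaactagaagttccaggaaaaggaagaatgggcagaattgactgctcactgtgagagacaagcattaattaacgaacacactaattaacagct
Klf13, 18306 bp upstream, chr7:63957121-63957321: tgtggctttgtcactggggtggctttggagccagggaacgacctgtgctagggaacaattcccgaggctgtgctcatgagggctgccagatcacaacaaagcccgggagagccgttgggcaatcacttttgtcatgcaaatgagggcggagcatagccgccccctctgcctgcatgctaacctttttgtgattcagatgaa

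Klf10 (chr15:38291463-38300706, minus strand), known as a gene induced early by TGF-β, had 0 of 39 sites called by limma on either deposited value and 0 of the 21 with a pile-up. Its promoter, 111 bp upstream, had 316, 343 and 356 reads in GR-con and 344, 419 and 350 in GR-KO, which overlapped (ratio 1.19, adjusted p = 0.103). The strongest distal site, 52692 bp from the start, had 200 ± 9.54 and 191 ± 17.1 reads (SD, n = 3). The smallest p among lower sites was 3266 bp from the start, in a coding exon of Klf10. There GR-con replicates 1 and 3 had peaks with −log10 p of 21.2 and 17.0 and no other library had any (adjusted p = 0.423). The smallest p among higher sites was 13257 bp upstream, with 28, 31 and 27 reads in GR-con and 50, 29 and 58 in GR-KO, which overlapped (adjusted p = 0.342 by −log10 p and 0.0618 by pile-up).

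The Klf10 window also held the 1 site of the 299 (0.334%) with a peak in all 3 GR-con libraries and no peak over it in any GR-KO library, against a background of 0.782% of all sites. It lay 43105 bp upstream, between genes. Its −log10 p was only 3.28, 4.33 and 4.25, and it did not pass (adjusted p = 0.489). The reverse pattern was at 0 of the 299 sites, against 0.381% of all sites.

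Klf2 (chr8:72319033-72321656, plus strand), which restrains activation of endothelial and immune cells, had 1 of 40 sites lower by −log10 p. It lay 97336 bp from the Klf2 start in an intron of Eps15l1, which encodes an endocytic adaptor and has the nearest start. Its pile-up was 166, 102 and 100 reads in GR-con and 43, 32 and 45 in GR-KO, without overlap (ratio 0.368, adjusted p = 1.21e-07). By −log10 p it passed narrowly (score difference -0.74 ± 0.14 SE, adjusted p = 0.0407), and it lost that call when any 1 of the 6 libraries was left out. By pile-up, which is solved from the same deposited values, it kept its call in all 6 of those fits (adjusted p up to 0.000138).

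By pile-up, a site 15202 bp upstream of Klf2 was lower, with 85, 112 and 91 reads in GR-con and 79, 47 and 48 in GR-KO (ratio 0.648, adjusted p = 0.0275). That call was lost without GR-con replicate 2, GR-KO replicate 2 or GR-KO replicate 3 (adjusted p up to 0.182). A site 78713 bp upstream, in an intron of Ap1m1, was higher, with 261, 234 and 247 against 318, 295 and 277 reads (ratio 1.31, adjusted p = 0.00976), and lost its call without GR-KO replicate 1 (adjusted p = 0.0883). The strongest distal site, in an exon of Ap1m1 79005 bp upstream, had 601 ± 29 and 637 ± 21.2 reads (limma, adjusted p = 0.141). The Klf2 promoter, 170 bp upstream, had 152, 173 and 156 reads in GR-con and 158, 170 and 142 in GR-KO, which overlapped (ratio 1.06, adjusted p = 0.754).

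Klf4 (chr4:55527143-55532466, minus strand), a pluripotency and differentiation factor, had 0 of 30 sites called by −log10 p. By pile-up 1 of its 15 sites was lower, 35293 bp upstream, with 53, 36 and 37 reads in GR-con and 15, 16 and 21 in GR-KO (ratio 0.467, adjusted p = 0.00232). Another, 71773 bp upstream, was higher, with 23, 18 and 16 against 37, 31 and 31 reads (ratio 1.87, adjusted p = 0.0167), and lost its call without GR-con replicate 3 or GR-KO replicate 1 (adjusted p up to 0.0998). All 12 of these pile-ups were below the library medians. The Klf4 promoter, 106 bp upstream, had 317, 336 and 346 reads in GR-con and 384, 353 and 322 in GR-KO, which overlapped (ratio 1.15, adjusted p = 0.211). Its strongest distal site, 17606 bp from the start, had 293 ± 27.7 and 262 ± 11.9 reads (scaled ratio 0.978).

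Klf6 (chr13:5861482-5870394, plus strand), a broadly expressed factor known from injury responses, had 0 of 16 sites called by −log10 p. Its promoter, 152 bp upstream, had 630, 560 and 600 reads in GR-con and 703, 681 and 630 in GR-KO. The conditions met at 630 reads. The ratio of 1.23 passed with median scaling (adjusted p = 0.0224) and not with quantile scaling (adjusted p = 0.243), and it was lost without GR-con replicate 2, GR-KO replicate 1 or GR-KO replicate 2 (adjusted p up to 0.137). The smallest p among lower sites was 57682 bp upstream, with 23, 32 and 29 reads in GR-con and 20, 26 and 16 in GR-KO, which overlapped (adjusted p = 0.720 by −log10 p and 0.552 by pile-up). The strongest distal site, 9026 bp from the start, had 103 ± 12.3 and 102 ± 2.89 reads.

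**Figure D4:**
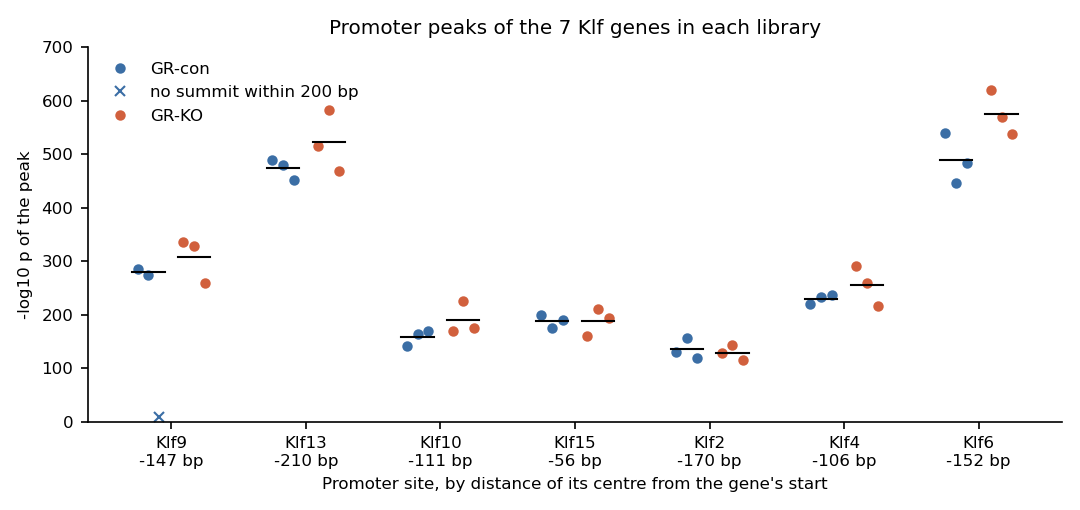
The −log10 p of the peak nearest the start of each gene, in each library. Black lines are condition means over libraries with a summit, and a cross marks GR-con replicate 3 at Klf9, which had no summit within 200 bp. GR-con and GR-KO points overlap at all 7 promoters.

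None of the 7 promoters passed by fold or −log10 p, with adjusted p by limma from 0.361 to 0.981 for −log10 p and from 0.439 to 0.931 for fold.

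The other 19 genes of the Klf and Sp families, which share the zinc-finger DNA-binding domain, were read in the same way. Counts were summed over their windows, so a site shared by windows counts in each. Of the 748 sites so counted, 0 were lower by −log10 p and 2 (0.267%) were higher, both near Klf7. By pile-up 2 of 446 were lower (0.448%) and 25 higher (5.61%). The windows of the 7 genes thus had more lower sites than the share over all sites, and those of their relatives fewer. These are counts with no test of the difference, and the 7 were chosen with earlier results of these data known. At least 1 lower site by −log10 p was in the windows of 4 of the 7 genes, of 0 of the 19 relatives and of 8.21% of protein-coding genes.

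Over the genome, 149 of the 1272 sites with the relaxed palindrome within 100 bp were lower in GR-KO by −log10 p (11.7%). In the windows 3 of 4 were, and the remaining one, 46692 bp from the Klf15 start, did not pass. Of the 8 lower sites in the windows, 5 held no palindrome within 200 bp of the centre, and 2 of those lay in the same stretch as the palindrome 84192 bp upstream of Klf9. Among other motifs sought within 100 bp on both strands, AP-1 (TGANTCA) was at 27 of the 299 sites (9.03%, against 6.03% of all sites). The E-box CACGTG was at 14 (4.68%, against 3.45%), and the GC box GGGCGG, which Klf and Sp proteins bind, at 43 (14.4%, against 13.4%). The NFI palindrome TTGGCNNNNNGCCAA was at 0 of the 299 and at 0.0513% of all sites. A match says only that these letters are present.

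The number of calls by −log10 p depended on the libraries. With 1 library left out, 278 to 282 window sites still had a peak in 2 or more libraries. Without GR-con replicate 1, 1 of 278 was lower (0.36%, against 0.0458% of all sites in that fit), and without GR-con replicate 2, 1 of 279 (0.358%, against 0.0462%). Without GR-KO replicate 3, 3 of 280 were (1.07%, against 0.212%). Without any 1 of the others, 5 were (1.77 to 1.80%, against 0.195 to 0.222%), of which 4 were among the 8 when GR-KO replicate 1 was left out and all 5 otherwise. The Klf9 site 84192 bp upstream was lower in all 6 of these fits. The Klf9 site 83770 bp upstream and the Klf15 site 8769 bp from the start lost their calls without GR-con replicate 1 or 2. The Klf15 site 6138 bp upstream lost its call without those or GR-KO replicate 1 or 3, and the Klf13 site 18306 bp upstream without any GR-con replicate or GR-KO replicate 3. The Klf9 site 73249 bp from the start kept its call only without GR-con replicate 3, and the Klf9 site 83179 bp upstream, like the Klf2 site, in none of the 6. By pile-up all 8 sites kept their calls in the 6 fits, but the pile-up is solved from the same fold and −log10 p. It is therefore not separate support for sites picked by −log10 p. In all, 17 to 21 of 161 sites were lower by pile-up in those fits (10.6 to 13.0%, against 1.63 to 2.34% of all sites), and 9 to 11 in the Klf9 window.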

How the data were processed

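ATAC-seq peak lists of 6 libraries, 3 GR-con and 3 GR-KO, were used. The authors aligned reads to mm10 and called peaks per library with the ENCODE ATAC-seq pipeline at its defaults and a p threshold of 0.01. Each deposited narrowPeak row gives a score, a fold (ratio) of summit over local background, a −log10 p and a −log10 q. No read counts were used, and depth was known only through the solved pile-up. Libraries held 179462 to 198929 peaks, and at most 66 of these per library lay in the window of any 1 of the 7 genes.

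Gene bodies came from GENCODE for mm10. A peak was assigned to a site where its summit fell within 200 bp of the centre, and 62914 sites with a peak in 1 library were left out. Libraries without a peak were ranked lowest. Ranks of fold and of −log10 p were turned into normal scores and tested with limma 3.58.1 (with trend, R 4.3.3), without covariates, and adjusted by the Benjamini-Hochberg method over all sites. The summit pile-up was solved from fold and −log10 p under a Poisson form inferred from the files (1 added to pile-up and background), and log2(pile-up + 1) was tested with limma on sites with a peak in all libraries. Score, q and peak width entered no test. The code was checked on simulated data. Replicates were separate pools of mice. The p-values rest on the spread between those pools, with each site's variance drawn by limma toward a trend over all sites tested. The pile-up was not fitted without that trend. Intervals cover counting error only.

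Sites named were those called, those with a strict palindrome, those with peaks in 1 condition only, and, for each gene, the promoter site, the strongest distal site and the smallest p in each direction; sites called only by pile-up and others said to be so were added after their values were seen. The members and lists were chosen with earlier results of these data known. Alternatives were window size, nearest start only, covering peaks, summit radius, filters, equal list lengths, scaling, limma without trend, a block for the replicate number and omission of single libraries. Python 3.11.15, numpy 2.4.6, pandas 2.3.3, scipy 1.17.1, pysam 0.24.0 and matplotlib 3.10.9 were used.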

Additional observations from a re-analysis of the deposited data

How the results depend on the processing

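Of 299 sites, 199 were left with windows of 50 kb, 475 with 200 kb, 159 with the nearest start only and 161 with a peak in all 6 libraries, and 278 to 282 without 1 library. The 8 sites lower by −log10 p numbered 4 at an adjusted p under 0.01 and in 50 kb windows, 1 without the variance trend, and 1 to 5 without 1 library. With covering peaks 4 sites were lower, of which 2 were among the 8, neighbours near Klf9 with the same value. The 1 higher numbered 4 in 200 kb windows, 2 without the trend, 0 at an adjusted p under 0.01, with the nearest start only or with non-overlapping sites, and 0 to 2 without 1 library. With covering peaks 2 sites were higher, and the 1 called before was not among them. By fold, the 0 lower sites became 1 without the trend, and the 0 higher became 1 without the trend or in 200 kb windows and 2 with covering peaks. Summit pile-up in place of either rank gave 21 lower and 3 higher with median scaling and 26 and 2 with quantile scaling. The 1 site with peaks in GR-con alone became 6 with covering peaks, 5 in 200 kb windows and 2 to 5 without 1 library, and the 0 in GR-KO alone became 1 with lists cut to equal length, 2 with covering peaks and 0 to 3 without 1 library. Higher sites by pile-up numbered 0 to 4 without 1 library, and 0 to 1 at Klf9. The causes of these changes were not tested. Leaving out libraries from the pile-up fit, and its replicate block, were added after seeing the data.

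Samples with the same replicate number did not deviate together (correlations of deviations -0.0011 to 0.0195 for fold and -0.0018 to 0.0203 for −log10 p), so the numbers were not taken to pair them. With the replicate block, 5 sites were lower (1.67%, against 0.126% of all sites) and 0 higher by −log10 p, and 24 lower and 6 higher by pile-up.

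The direction turned by −log10 p for the Klf13 site 41678 bp from the start with covering peaks (-0.37). It was the only result listed here that had passed by the rank that turned. The Klf9 sites that follow passed by −log10 p and turned by fold, by which they did not pass. By fold, the Klf9 site 83179 bp upstream was at 0.000906 with covering peaks, and the Klf9 site 83770 bp upstream at 0.00271 with non-overlapping sites and -0.0198 to 0.00865 without 1 library. The Klf2 promoter was at -0.0275 to 0.0563 by −log10 p and -0.134 to 0.0459 by fold without 1 library, and at 0.0890 and 0.0513 by pile-up with median and quantile scaling. The Klf15 promoter was at -0.0142 to 0.0708 by −log10 p without 1 library, and at -0.0559 and -0.168 by pile-up with median and quantile scaling. The Klf13 promoter was at -0.00208 by pile-up with quantile scaling.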

Other observations

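Among the other Klf and Sp genes, both sites that were higher in GR-KO by −log10 p lay in the window of Klf7, a factor known from neuronal development, and were neighbours. At 122233 bp from its start the pile-up was 67, 49 and 55 reads in GR-con and 125, 157 and 135 in GR-KO (limma, adjusted p = 0.00328 by −log10 p). At 122553 bp it was 128, 112 and 119 against 173, 184 and 191 (adjusted p = 0.0295). No palindrome of either form was found at them, and the conditions did not overlap at either.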
